A study of Mus musculus with 2 samples.

Results

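The transcripts of 10 immediate early genes that neuronal activity induces were examined in the brain of dams without TDAG51, a gene also named Phlda1. They were Fos, Fosb and Junb of the AP-1 family, Egr1, Egr2, Egr3 and Egr4 of the EGR family, the nuclear receptor gene Nr4a1, the phosphatase gene Dusp1 and the synaptic gene Arc. The members were chosen by name, with earlier results of these data known. Every non-control probe that carried one of these names on the array was taken. This gave 12 probes of 41174, and 10 gene names of 27962.

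Immediate early genes are switched on within minutes of neuronal firing or growth factor signalling, without the need for new protein, and their messages are short-lived. In the brain, calcium entry through synaptic receptors activates kinases that act on the factors CREB, SRF and the ternary complex factors already bound at these genes. Many of the products are transcription factors that drive a later set of genes, while others act at the synapse or shut the kinase signal off again.

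RNA levels were read on 2 dual-colour arrays of the whole mouse genome, each hybridized with whole brain RNA of 2 genotypes. The TDAG51 KO sample was in Cy3 on both arrays, against TDAG51 WT in Cy5 on the first and TDAG51 KO Tg in Cy5 on the second. All groups were females 8 weeks of age, taken on postpartum day 0. The strain named in the study's methods was C57BL/6J, to which the transgenic lines were backcrossed. For the making of the TDAG51 KO mice the methods refer to earlier work. The TDAG51 KO Tg animals lacked the endogenous gene like the TDAG51 KO animals and carried a TDAG51 transgene driven by the BAI1-AP4 promoter, which is active mainly in the cerebral cortex and hippocampus and was studied here in 1 transgenic line. The number of dams in each sample is not given in the sources used here, nor whether both arrays received the same TDAG51 KO RNA. With 1 array per comparison and no dye swap, the spread between dams was not measured, no test was possible, and genotype and dye cannot be told apart. Fewer cells of a type and less RNA per cell cannot be told apart either in whole brain RNA.

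Ratios are given as TDAG51 KO over the control on the log2 scale, after background correction and loess normalization within the array, and 2-fold, the cut-off of the study's methods, is 1 on that scale. Intensities are the scanner's mean values for a probe before this correction, in arbitrary units, and they are compared only within a probe. On both arrays, all 12 probes were marked as well above background in both channels. Repeated spots of a probe differed little: for the 245 probes printed 5 times or more, the typical (median) SD was 0.063 and 0.065 for the arrays with TDAG51 WT and TDAG51 KO Tg. This is the error of the measurement and not of the animals. In the Cy3 channel 60 and 62 probes were saturated, and in the Cy5 channel 480 and 510.

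The deleted gene was measured by 1 Phlda1 probe (chr10:110970234-110970293, mm7, plus strand). Its intensity was 350.5 in the TDAG51 KO and 7283 in the TDAG51 WT sample, and 44.1 in the TDAG51 KO and 50.5 in the TDAG51 KO Tg sample on the second array. The ratio to TDAG51 WT was -4.11, or 17.3-fold lower. On the second array the probe was not well above background in either channel, so that no fold is given there. The TDAG51 KO channels of the arrays thus differed for this probe. Whether the transgene contains the stretch read by this probe is not given in the sources used here, and the probe therefore does not check the TDAG51 KO Tg label.

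The start regions of these genes are shown first, because some motifs through which neuronal activity acts can lie there. Sequence more than 250 bases before the start was not searched. RefSeq promoter windows (GRCm38.p6) were matched by symbol for 7 of the 10 members, namely Fos, Fosb, Junb, Egr2, Egr4, Nr4a1 and Dusp1, in 11 windows of 250 bases before the start. Egr1, Egr3 and Arc are named only. Since 3 members had no window, a count of motifs over the list is void as a check of the list and is given as a description of these windows. In the 5 windows printed here, 5′ to 3′, capitals mark matches to the cAMP response element TGACGTCA or its core TGACG, the CArG box to which SRF binds, the EGR site GCGNGGGCG or the TATA box TATAAA, read on both strands. The Egr2 window is 1 of 5 for that gene.
Fos, chr12:85473640-85473889, plus strand: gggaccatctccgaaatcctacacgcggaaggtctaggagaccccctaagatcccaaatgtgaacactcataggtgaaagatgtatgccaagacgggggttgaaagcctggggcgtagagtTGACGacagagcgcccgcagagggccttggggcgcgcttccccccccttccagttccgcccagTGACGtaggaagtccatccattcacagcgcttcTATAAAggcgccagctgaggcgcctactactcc
Fosb, chr7:19310046-19310295, minus strand: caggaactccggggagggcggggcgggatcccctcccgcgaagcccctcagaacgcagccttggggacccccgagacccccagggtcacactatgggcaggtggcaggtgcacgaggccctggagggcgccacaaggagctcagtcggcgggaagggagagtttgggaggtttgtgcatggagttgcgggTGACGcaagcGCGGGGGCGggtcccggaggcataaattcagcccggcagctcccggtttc
Egr2, chr10:67537620-67537869, plus strand: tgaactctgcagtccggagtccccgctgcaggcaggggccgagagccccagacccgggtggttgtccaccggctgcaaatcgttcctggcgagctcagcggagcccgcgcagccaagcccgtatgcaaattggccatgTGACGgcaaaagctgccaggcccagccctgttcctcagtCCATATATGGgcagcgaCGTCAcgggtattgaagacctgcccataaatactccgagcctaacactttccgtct
Egr4, chr6:85513590-85513839, minus strand: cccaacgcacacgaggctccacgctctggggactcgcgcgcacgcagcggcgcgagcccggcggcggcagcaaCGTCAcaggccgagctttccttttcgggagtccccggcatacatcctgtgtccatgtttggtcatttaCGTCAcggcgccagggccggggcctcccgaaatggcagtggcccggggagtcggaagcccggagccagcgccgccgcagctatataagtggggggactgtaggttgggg
Dusp1, chr17:26508473-26508722, minus strand: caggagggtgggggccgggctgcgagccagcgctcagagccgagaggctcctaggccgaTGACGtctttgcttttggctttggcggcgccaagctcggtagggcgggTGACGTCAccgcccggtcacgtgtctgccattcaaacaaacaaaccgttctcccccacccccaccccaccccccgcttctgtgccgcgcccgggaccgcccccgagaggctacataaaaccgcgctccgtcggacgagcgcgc
The core TGACG, or CGTCA on the other strand, was found in a window of all 7 members, and in 19.8% of 27025 genes with a window. Since all 7 carried it, the presence of the core cannot be set against the direction of the ratios. The full palindrome TGACGTCA, which contains the core on both strands, was found in Dusp1 alone of the 7 members, from -143 to -136 relative to the start (1.77% of genes). Within these windows, a CArG box was found in Egr2 alone (1.62% of genes), which had more windows than any other member. The box was counted only where all letters between CC and GG were A or T. A box with a mismatch was therefore not counted. A box further upstream of Fos or another member would have been missed. Fos was the member with the letters TATAAA (14.3% of genes). The EGR site was found in Fosb and Nr4a1 (5.33% of genes). The AP-1 site TGANTCA was in none of these windows and in 7.82% of genes. A match is a description of the letters in these windows, and not of binding in these samples.

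The 4 EGR genes code for zinc finger transcription factors that bind the same GC-rich site. All 4 were lower in the TDAG51 KO sample than in both controls, and Egr1, Egr2 and Egr3 by more than 2-fold on each array. Egr3, a factor of muscle spindles and of activity-dependent transcription in neurons, was the member with the largest ratio in this direction. Its brighter probe (AK141603, chr14:64726656-64726715, plus strand; all probe positions are on mm7) gave an intensity of 2760.5 in the TDAG51 KO and 14877 in the TDAG51 WT sample, and of 2638 in the TDAG51 KO and 18472 in the TDAG51 KO Tg sample. Both TDAG51 KO values were low and close to each other, and both controls were several times higher. The ratios were -2.05 ± 0.28 (scanner error) and -2.40 ± 0.31, or 4.14-fold and 5.26-fold lower. Here and below, the scanner error is what the scanner software gave for its own ratio of the spot. For this probe its own ratios were -2.09 and -2.45.

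The second Egr3 probe (NM_018781, chr14:64723504-64723563) starts 3152 bases before the first one and was dim. Its intensities were 135 in TDAG51 KO against 218 in TDAG51 WT, and 125 in TDAG51 KO against 131 in TDAG51 KO Tg. The ratio was -0.59 to TDAG51 WT and 0.09 to TDAG51 KO Tg, where the sign turned to -0.08 without normalization. The probes of Egr3 thus gave different ratios, and the fold of Egr3 rests on the brighter one.

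Egr2, known for its part in Schwann cell myelination and hindbrain patterning, was printed 10 times on each array. Over these spots the intensity was 1695 ± 242 (SD, n = 10 spots) in TDAG51 KO and 6500 ± 979.6 in TDAG51 WT (chr10:67145376-67145435, plus strand). On the second array it was 1751 ± 193 in TDAG51 KO and 5511 ± 565 in TDAG51 KO Tg, over the 9 spots not marked as outliers. No TDAG51 KO spot reached the level of a control spot. The ratio was -1.66 ± 0.057 (SD over spots) to TDAG51 WT, with spots from -1.71 to -1.53, and -1.36 ± 0.061 to TDAG51 KO Tg, with spots from -1.48 to -1.30. These are 3.15-fold and 2.57-fold, and the spots of the first array lay lower than those of the second without overlap.

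Egr1, the most widely used marker of neuronal activity in this family (chromosome 18), gave 9030 in TDAG51 KO and 38834 in TDAG51 WT, and 8811 in TDAG51 KO and 30755 in TDAG51 KO Tg. The TDAG51 KO values again lay close to each other and below both controls. The ratios were -1.54 ± 0.25 (scanner error) and -1.24 ± 0.23, or 2.90-fold and 2.37-fold lower. Egr4, which is restricted mostly to neurons, was read by 1 probe (chr6:85540804-85540863, minus strand), with 450.2 against 907 in TDAG51 WT and 484 against 907 in TDAG51 KO Tg. Its ratios of -0.84 and -0.66 (1.79-fold and 1.58-fold) were in the same direction without reaching 2-fold. Without normalization the ratio to TDAG51 WT passed the cut-off narrowly.

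The AP-1 members did not move together. Fosb codes for an AP-1 subunit whose truncated form accumulates in neurons with repeated stimulation, and the gene is known for its role in nurturing by mouse mothers. Its probe (chr7:16985502-16985561, minus strand) gave 1254 in TDAG51 KO and 3204 in TDAG51 WT, and 1195 in TDAG51 KO and 2593 in TDAG51 KO Tg. Both TDAG51 KO values were below both controls. The ratio was -1.11 ± 0.23 (scanner error) to TDAG51 WT, or 2.16-fold lower, and -0.86 ± 0.22 to TDAG51 KO Tg, or 1.81-fold lower. The cut-off lies between these ratios, whose scanner errors overlap, and without normalization the second was -1.11.

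Fos, the AP-1 subunit most used to map active neurons, lay in the other direction. Its probe was printed 10 times (NM_010234, chr12:83478431-83478490, plus strand) and gave 1292 ± 119.6 (SD, n = 10 spots) in TDAG51 KO and 816 ± 72.7 in TDAG51 WT. Against TDAG51 KO Tg, the TDAG51 KO sample gave 1277 ± 85.1 and the control 1188 ± 69.5 over 9 spots. The TDAG51 KO level was thus nearly the same on both arrays, and the TDAG51 WT sample was the lowest of the 4 channels. The ratios were 0.83 ± 0.065 (SD over spots, from 0.73 to 0.95) and 0.34 ± 0.056 (from 0.26 to 0.44), or 1.78-fold and 1.26-fold higher in TDAG51 KO, and neither reached 2-fold. All spots used were above 0 on both arrays, as the plot of single spots shows.

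**Figure D1:**
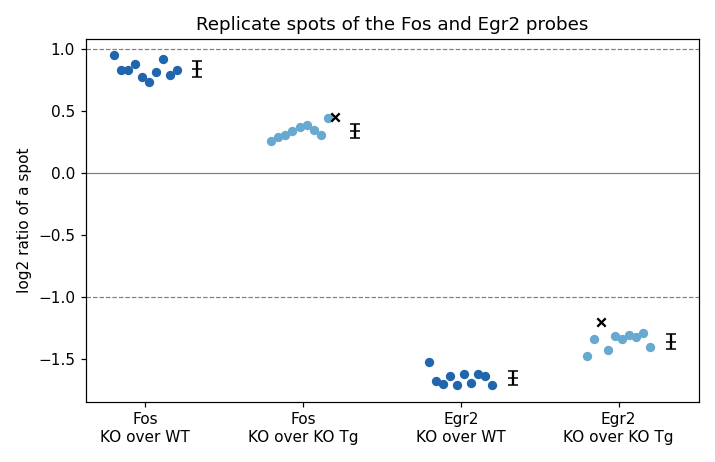
log2 ratio of TDAG51 KO over control (vertical axis) for each spot of the Fos and Egr2 probes on the array with TDAG51 WT (dark blue) and on that with TDAG51 KO Tg (light blue). Horizontal placement within a column only separates the spots. Crosses are spots marked as outliers by the scanner and left out, black bars are the mean and SD of the other spots, and dashed lines are 2-fold. Fos spots lie above 0 and Egr2 spots below -1 in both comparisons.

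Junb, an AP-1 subunit that often opposes Jun, was read by 2 probes that share 22 of their 60 bases. The brighter one (chr8:83563059-83563118, minus strand) was saturated in Cy5 on both arrays, at 65284, beside 61172 and 50330.5 in the TDAG51 KO channels. A saturated control allows no fold here, and Junb entered the counts below with none. The dimmer probe (chr8:83563097-83563156) was not saturated and gave 3703 in TDAG51 KO against 6585 in TDAG51 WT, and 3358 in TDAG51 KO against 6993 in TDAG51 KO Tg. Its ratios of -0.50 ± 0.21 (scanner error) and -0.71 ± 0.21, or 1.41-fold and 1.64-fold lower, were below the cut-off.

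Nr4a1 codes for an orphan nuclear receptor induced by activity and by stress hormones. Its probe (chr15:101260484-101260543, plus strand) gave 1795 in TDAG51 KO and 2910.5 in TDAG51 WT, and 2036 in TDAG51 KO and 3245 in TDAG51 KO Tg. The TDAG51 KO values were the lower ones on both arrays, by 1.37-fold and 1.32-fold (log2 ratios of -0.46 and -0.40). Dusp1, the nuclear phosphatase that switches off MAP kinases, was measured at 4658 in TDAG51 KO and 3504 in TDAG51 WT, and at 3586 in TDAG51 KO and 4277 in TDAG51 KO Tg (chr17:24690398-24690455, minus strand). Its ratio was 0.71 ± 0.21 (scanner error), or 1.63-fold higher, to TDAG51 WT. To TDAG51 KO Tg it was 0.06 ± 0.20, with a sign that turned under median centring and without normalization, down to -0.25. The intensity in TDAG51 KO itself differed between the arrays more for Dusp1 than for the other members.

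Arc codes for a protein of dendrites and postsynaptic sites that takes part in the removal of AMPA receptors, and its message is carried into active dendrites. The probe (chr15:74749717-74749776, minus strand) gave 1922 in TDAG51 KO and 3930 in TDAG51 WT, and 1967 in TDAG51 KO and 7143 in TDAG51 KO Tg. The TDAG51 KO values were alike, and the TDAG51 KO Tg value stood well above the TDAG51 WT value. The ratio was -0.78 ± 0.22 (scanner error) to TDAG51 WT, or 1.71-fold lower, and -1.55 ± 0.25 to TDAG51 KO Tg, or 2.93-fold lower. Without normalization the first was -1.03. After normalization between the arrays, the level of Arc was higher in TDAG51 KO Tg than in TDAG51 WT by 0.83 on the log2 scale, the largest such difference among the members, followed by Fos at 0.48.

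**Figure D2:**
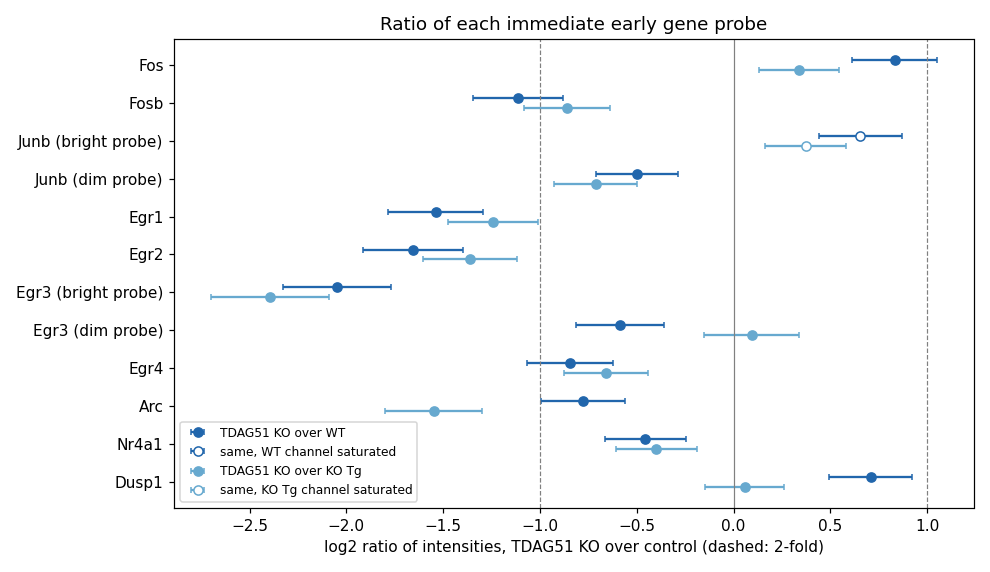
log2 ratio of the intensities of TDAG51 KO over TDAG51 WT (dark blue) and over TDAG51 KO Tg (light blue) for the 12 probes of the 10 genes. Bars are the error that the scanner software gave for its own ratio of the spot, and they cover no spread between animals. Dashed lines are 2-fold, and open points are Junb ratios whose control channel was saturated. Egr1, Egr2 and the brighter Egr3 probe lie below -1 in both comparisons, and Fos lies above 0 in both.

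Over the 10 genes, each by its brightest probe, 4 were at least 2-fold lower in TDAG51 KO than in TDAG51 WT (Fosb, Egr1, Egr2 and Egr3), beside 4.65% of the 23180 genes above background. None was 2-fold higher, beside 4.86% of genes. Against TDAG51 KO Tg, 4 were at least 2-fold lower (Egr1, Egr2, Egr3 and Arc), beside 3.98% of 22686 genes, and none was higher, beside 4.71%. In each comparison 7 of the 9 genes with a fold were below 0 and 2 were above, the latter being Fos and Dusp1, whose sign against TDAG51 KO Tg turned under median centring and without normalization. The median ratio of the 9 was -0.84 to TDAG51 WT and -0.86 to TDAG51 KO Tg, where the median over all genes was -0.01 and 0.00. Both comparisons rest on TDAG51 KO samples, so that their values stand side by side and are not independent. Because the members were chosen with earlier results of these data known, these counts and shares are a description only.

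The levels of the 4 channels could be set side by side after a further normalization between the arrays (Aquantile). Between the TDAG51 KO channels, the robust SD of the log2 difference over 22277 genes was 0.15 and 0.287% of genes differed by 2-fold, while between TDAG51 KO Tg and TDAG51 WT the SD was 0.38 and 6.81% differed. The normalised levels of Egr2 were 1866 and 1925 in the TDAG51 KO channels, 5884 in TDAG51 WT and 4949 in TDAG51 KO Tg. Those of Fosb were 1384 and 1308, 2995 and 2373 in the same order, and those of Arc 2112, 2193, 3619 and 6417. In these genes, as in Egr1, Egr4, Nr4a1 and the brighter Egr3 probe, both TDAG51 KO levels were below both controls.

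**Figure D3:**
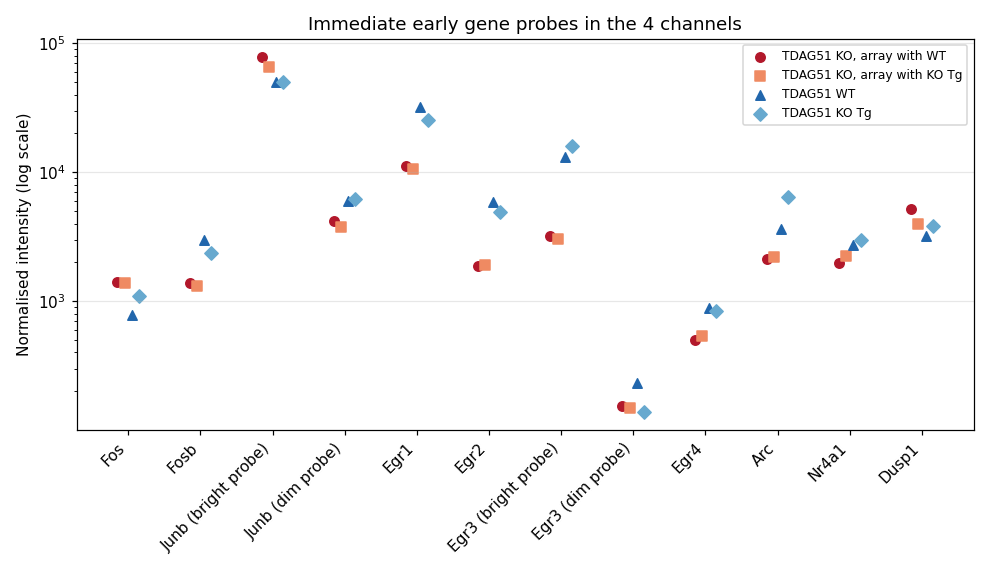
Normalised intensity (log scale, arbitrary units) of the 12 probes in the 4 channels, 1 value each, with TDAG51 KO in red and orange and the controls in dark and light blue. The TDAG51 KO values of a probe lie near each other, below both controls for Fosb, the dimmer Junb probe, Egr1, Egr2, the brighter Egr3 probe, Egr4, Arc and Nr4a1, and above both controls for Fos and, narrowly over TDAG51 KO Tg and with a sign that turns with the scaling, Dusp1. The control values of the brighter Junb probe are saturated.

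The other genes of these pathways were counted in the same way, beside the same shares of all genes, 4.65% lower and 4.86% higher than in TDAG51 WT and 3.98% and 4.71% against TDAG51 KO Tg. Of 8 other AP-1 subunits and partners, 7 were above background and 5 had a fold, since Fosl2 and Jund were saturated. Of these, 1 was 2-fold lower than in TDAG51 WT and none against TDAG51 KO Tg, with medians of 0.19 and 0.32, the latter turning to -0.23 without normalization. The gene that was lower was Maff, a small Maf factor, at -1.03 and -0.08 (named after its values were seen), and under median centring no gene of the list was 2-fold lower. Jun, the classic partner of Fos, was at 0.43 and -0.15. Among the NR4A receptors and their EGR co-repressors, none of 3 genes reached 2-fold in either comparison. Nr4a2, the relative of Nr4a1 needed for dopamine neurons, was at -0.74 and 0.20, and Nab2, a co-repressor that EGR proteins induce, at -0.12 and -0.59. These values of Jun, Nr4a2 and Nab2 were likewise picked after they were seen.

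Of 13 other inducible transcription regulators, 12 had a fold, since Klf2 was saturated, and 2 were 2-fold lower in each comparison and none was higher. With the scanner's or the deposited ratio 1 was higher than in TDAG51 WT. The medians were 0.05, which changed sign without normalization, and -0.07. Klf10, a zinc finger repressor induced by TGF-beta, was lower in both, with 9052 against 29493 in TDAG51 WT (-1.16) and 8283 against 41073 in TDAG51 KO Tg (-1.73). The other gene differed between the comparisons (both chosen after their values were seen). Per1, a clock gene that light and activity also induce, gave 685 in TDAG51 KO against 4855 in TDAG51 WT (-2.58), and 698 against 741 in TDAG51 KO Tg (0.15). Npas4, a factor that responds to calcium entry in neurons, gave 345 against 204 (0.82), and 337 against 864 (-1.10). The TDAG51 KO intensities of both genes were close between arrays, and the control samples differed.

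Of 16 inducible genes of signalling feedback, 14 were above background. In each comparison 3 were 2-fold lower and none was higher, with medians of -0.21 and -0.38. With the median over the probes of a gene, the count lower was 2 in each comparison. Rgs4, which shortens signalling by G proteins and is abundant in forebrain, was 11128 in TDAG51 KO against 52425 in TDAG51 WT (-1.63), and 13426 against a saturated TDAG51 KO Tg channel, which bounds the ratio at -1.63 or lower. Dusp14, a MAP kinase phosphatase, was at -1.23 and -1.03.

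Of 16 synaptic and secreted products of activity, 15 were above background. Of these, 3 were 2-fold lower than in TDAG51 WT with none higher, and 5 were lower and 1 was higher than in TDAG51 KO Tg. The medians were -0.44 and -0.81. With the median over the probes of a gene, the counts lower were 2 against TDAG51 WT and 4 against TDAG51 KO Tg. Nptx2, a secreted pentraxin that gathers AMPA receptors, gave 1617 in TDAG51 KO against 6121 in TDAG51 WT (-1.64), and 1627 against 15263 in TDAG51 KO Tg (-2.87). As with Arc, the TDAG51 KO values were alike and the TDAG51 KO Tg value stood above TDAG51 WT. Homer1, a scaffold of the postsynaptic density with a short inducible form, was at -1.12 and -1.24, and Inhba, a subunit of activin, at -1.18 and -1.44. Which form of Homer1 the probe reads was not determined. Bdnf, the neurotrophin, was at -0.19 and -0.59 (chosen after its values were seen).

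Of 21 kinases, receptors and factors that act upstream, 20 were above background. Against TDAG51 WT 2 were 2-fold lower and 1 was higher, against TDAG51 KO Tg 3 were lower and none was higher, and the median was -0.46 in both. The count lower than in TDAG51 WT was 0 with the median over the probes of a gene, 1 with the brightest unsaturated probe, 4 under median centring and 6 without normalization. Grin2b, an NMDA receptor subunit, gave 11608 in TDAG51 KO against 49094 in TDAG51 WT (-1.48), and 11481 against 47778 in TDAG51 KO Tg (-1.44). Mef2c, a transcription factor of excitatory neurons, was at -1.73 or lower against TDAG51 WT, whose channel was saturated, and at -2.09 against TDAG51 KO Tg. Srf and Creb1, named here for their role in the induction of the members, were at -0.10 and 0.07 against TDAG51 WT and at -0.62 and 0.43 against TDAG51 KO Tg.

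Genes that mark brain regions also differed between TDAG51 KO and the controls. Of 12 cortex and hippocampus markers, 6 were 2-fold lower in TDAG51 KO in each comparison and none was 2-fold higher. Of all genes, 4.65% and 3.98% were 2-fold lower. The medians of the 12 markers were -1.01 and -0.96, with 10 below 0 and 2 above in each comparison. Their normalised levels, summed over the same probes in both channels, were at most 0.63 of those in TDAG51 WT (91427 against 144451) and 0.53 of those in TDAG51 KO Tg (79983 against 151095), since the control of Nrgn, among others, was saturated. Tbr1, a factor of deep cortical neurons, was at -1.25 and -1.48. Of 9 striatal markers above background, 7 were lower in each comparison, with medians of -1.41 and -1.54 and summed levels of 61205 against 145949 in TDAG51 WT and 57659.5 against 149738 in TDAG51 KO Tg, 0.42 and 0.39 of the controls. Among these, Drd1, the dopamine receptor of the direct pathway, was at -2.44 and -2.42. Not all striatal markers were lower. In each comparison 8 of the 9 were below 0 and 1 was above. The ratios ranged from -2.44 to 0.10 against TDAG51 WT and from -2.62 to 0.20 against TDAG51 KO Tg.

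The markers of the back of the brain lay the other way. Of 12 cerebellar markers, 8 were 2-fold higher than in TDAG51 WT with none lower, and 9 were higher and 1 was lower than in TDAG51 KO Tg. Their medians were 2.03 and 1.89, and their summed level was 436401 against 127318 in TDAG51 WT and 446061 against 126581 in TDAG51 KO Tg, or at least 3.43 and 3.52 times the controls, since Pcp2, Cbln1 and Zic1 were saturated in TDAG51 KO on both arrays. Gabra6, a receptor subunit of cerebellar granule cells, was at 3.87 and 3.92. Of all genes, 4.86% and 4.71% were 2-fold higher. Of the hindbrain and brainstem markers, 7 of 10 were 2-fold higher than in TDAG51 WT and 7 of 9 than in TDAG51 KO Tg. Their medians were 2.61 and 2.69, and 2 of these markers were below 0 in each comparison. Their summed level was 9266 against 2101 in TDAG51 WT and 9591 against 2232 in TDAG51 KO Tg, 4.41 and 4.30 times the controls. Apart from the striatal Gpr6 on both arrays and the hindbrain Phox2a on the second, no regional marker was near background in both channels. The 9 pan-neuronal markers, taken as a check of the brain label, were all above background, with medians of -0.23 in both comparisons, or -0.60 and -0.49 under median centring and -0.78 and -0.62 without normalization. Their summed levels, 1.06 and 1.02 times the controls, include saturated controls of Eno2 on both arrays and Syn1 on the second. The part of these regional differences in the ratios of the immediate early genes was not tested.

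Other cell types were measured in the same way. All 7 microglial markers were below 0 in each comparison, with medians of -0.64 and -0.65 and summed levels of 0.61 and 0.62 of the controls. Some lay close to 0, the nearest at -0.10 against TDAG51 WT and -0.01 against TDAG51 KO Tg. Only 1 and 3 of the 7 were 2-fold lower, beside 4.65% and 3.98% of all genes. The medians of astrocyte markers were 0.07 and 0.04 and of oligodendrocyte markers -0.26 and 0.30, those of endothelial and mural markers 0.44 and -0.01, and those of the choroid plexus 0.51 and 0.48. The astrocyte medians, the second oligodendrocyte median and the second endothelial median changed sign with the scaling. The 4 blood genes lay below 0 against TDAG51 WT (median -1.10) and above 0 against TDAG51 KO Tg (1.23). Hba-a1, a globin, gave 2259 in TDAG51 KO against 32894 in TDAG51 WT, and 35469 against 23756 in TDAG51 KO Tg, so that the TDAG51 KO channels themselves differed by 15.7-fold. The part of blood and of these cell types in the ratios of the members was not tested.

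**Figure D4:**
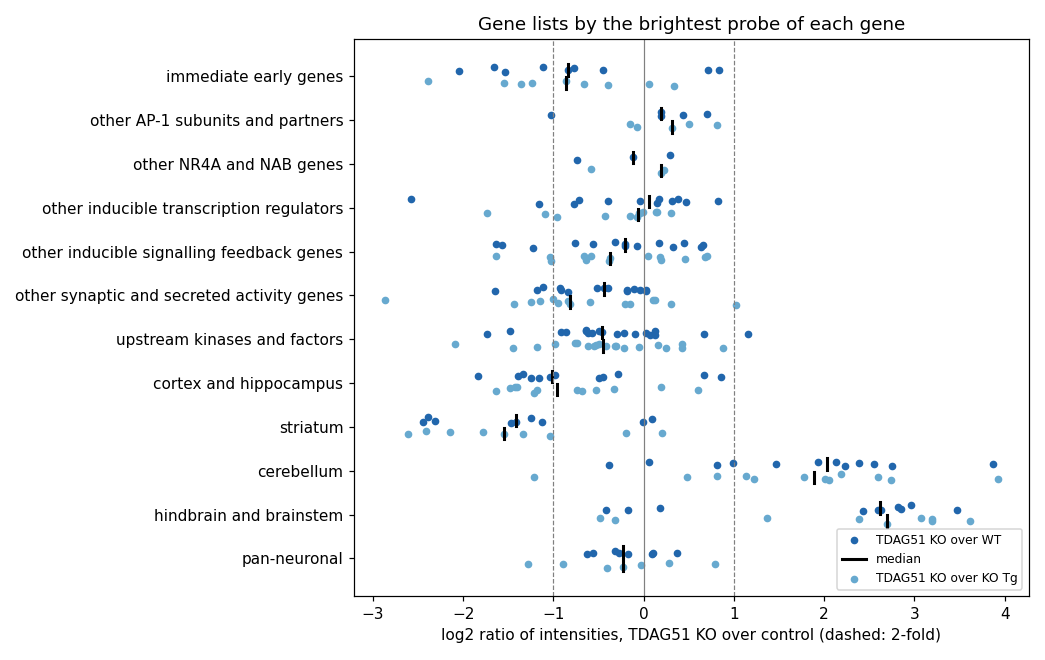
log2 ratio of TDAG51 KO over TDAG51 WT (dark blue) and over TDAG51 KO Tg (light blue) for each gene with a fold, by list, with the black bar at the list's median and dashed lines at 2-fold. Vertical placement within a row only separates the points, and genes with a saturated brighter channel are drawn at their lower bound. The medians of the immediate early genes (-0.84 and -0.86) and of the cortical and striatal markers lie below 0, and those of the cerebellar and hindbrain markers lie above 1.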

How the data were processed

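Whole brain RNA of TDAG51 KO, TDAG51 WT and TDAG51 KO Tg dams was hybridized to 2 Agilent arrays on 1 slide. The authors deposited the scanner files of Feature Extraction 9.5.3.1. These deposited files give for each spot the mean intensity and the local background intensity. They also hold the log10 ratio that the deposited software output reports for Cy5 over Cy3 once dyes were balanced. The p-value deposited beside it comes from the scanner's error model for a spot and was not used for calls. A processed log2 ratio of Cy3 over Cy5, deposited by the authors as well, differed from the scanner's by a median of 0.0059 and 0.0058. Its column medians were -0.011 and -0.0087, and its normalization is not given in the sources used here.

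Control spots and spots marked as outliers (375 and 300) were dropped. limma 3.58.1 (R 4.3.3, version 1.17.8 of data.table) was used for normexp correction with an offset of 50, loess within each array and, for channel levels, Aquantile, and spots of a probe were averaged. Median intensities were 338 and 336 in Cy3 and 364 and 385 in Cy5. Precision is limited by having 1 array per comparison. A gene was taken by its brightest probe that was above background in at least 1 channel. Folds were lower bounds where the brighter channel was saturated or the dimmer near background, and were not given where the dimmer was saturated or both were near background. Probes were named through RefSeq, using the accession for 22913, the symbol for 6649 and a synonym for 3102, while 8440 found no match and kept their name. The normexp and loess steps were tested on simulated spots of 1 array. Python 3.11.15 with numpy 2.4.6, pandas 2.3.3 and matplotlib 3.10.9 made the plots.

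The members and the gene lists were chosen with earlier results of these data known. All members and their probes were named, with Phlda1, up to 4 genes of each other pathway list and up to 2 of each marker list that were 2-fold in the same direction on both arrays, ranked by the smaller ratio. Single values of some marker genes are not reported here, although their lists were counted whole. The alternatives were offset 0, median centring, no normalization, the scanner's or the deposited ratio, a stricter filter or none, another probe per gene, and a 1.5-fold cut-off.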

Additional observations from a re-analysis of the deposited data

How the results depend on the processing

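No paired analysis was possible because each comparison had 1 array. With offset 0, median centring, the scanner's ratio and the deposited ratio, the 4 members that were 2-fold lower in a comparison stayed the same. They were Fosb, Egr1, Egr2 and Egr3 against TDAG51 WT, and Egr1, Egr2, Egr3 and Arc against TDAG51 KO Tg. Without normalization, which moved the median of all genes to -0.23 and -0.28, the counts were 6 and 5 and included the 4 of that comparison. With a 1.5-fold cut-off 6 members were lower in each comparison and 2 were higher than in TDAG51 WT. The median ratio of the members to TDAG51 WT was -0.92 with offset 0, -1.02 without normalization, -0.96 with the scanner's ratio and -0.96 with the deposited ratio. To TDAG51 KO Tg it was -0.74 with median centring, -0.99 without normalization, -0.93 with the scanner's ratio, -0.79 with the median over the probes of a gene and -0.79 with the brightest probe not saturated in either channel, an alternative chosen after seeing the data. The cause of these shifts was not tested. Across 5 scalings, 11 of the 12 probes kept their sign against TDAG51 WT and 9 of 12 against TDAG51 KO Tg, the others being the saturated Junb probe, the dimmer Egr3 probe and Dusp1. Of all genes, 4.65% were lower and 4.86% higher than in TDAG51 WT, and 3.98% and 4.71% against TDAG51 KO Tg. These shares were 7.79%, 8.40%, 6.62% and 8.27% with offset 0, 9.48%, 10.6%, 8.01% and 10.4% with the scanner's ratio, 9.75%, 10.3%, 8.43% and 9.81% with the deposited ratio, 13.2%, 13.2%, 12.1% and 13.4% at 1.5-fold, and 9.06%, 3.31%, 9.26% and 2.74% without normalization. Of the other pathway lists, the synaptic and secreted genes lower than in TDAG51 WT went from 3 to 5 under median centring and 6 without normalization, the 1 higher than in TDAG51 KO Tg was lost without normalization, and the feedback and upstream genes lower than in TDAG51 KO Tg went from 3 each to 6 and 8 without it. Also without it, the transcription regulators lower than in TDAG51 WT went from 2 to 4, and the 1 upstream gene higher than in TDAG51 WT was lost. With offset 0, the scanner's and the deposited ratio, 1 other AP-1 gene was higher than in TDAG51 KO Tg. Signal limits Junb, saturated by its brighter probe, and the dimmer Egr3 probe, at 125 to 218 over backgrounds of 37.5 to 42.5.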
